A study of Mus musculus with 12 samples.

Results

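A set of 10 genes that host small nucleolar RNAs were followed across the hippocampus and cerebral cortex of 5 × FAD and WT mice: Gas5, Snhg1, Snhg3, Snhg5, Snhg6, Snhg8, Snhg11, Snhg12, Snhg15 and Snhg17. They were chosen by name, and every transcript of the count table that the GENCODE M21 annotation assigns to one of them was taken, which gave 84 of the 48033 transcripts, or 10 of the 22103 genes and assembled loci. The 5 × FAD mice, on the C57BL/6J strain, carry APP and PS1 transgenes with 5 familial Alzheimer mutations in all and overproduce amyloid-beta, and the WT mice of the same strain carry neither transgene. All mice were aged 7 months, both regions came from each mouse, and each of the 4 groups held 3 libraries of total RNA depleted of ribosomal RNA, named here by genotype and number. The transgenes of this line are driven by Thy1 elements, which act mainly in neurons, so the line models amyloid load and not the whole disease.

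Small nucleolar RNAs guide the chemical modification of ribosomal RNA. Box C/D RNAs direct the methylation of riboses, and box H/ACA RNAs direct the conversion of uridine to pseudouridine. In mammals most of them lie in introns of a host gene and are freed when the host transcript is spliced and the excised intron is trimmed. Several host genes of this kind make a spliced RNA with no long reading frame, which nonsense-mediated decay, the pathway that removes transcripts with early stop codons, keeps low. Gas5 is the best known of them and builds up when growth stops, since its RNA starts with a run of pyrimidines like that of ribosomal protein mRNAs and is lost slowly when its translation is blocked. Values below are for the host transcripts, and the small RNAs themselves were not analysed here.

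The annotation places 33 small nucleolar RNA loci inside the 10 hosts, each on the strand of its host, and all 33 lie in an intron of at least 1 host transcript. Gas5 holds 9 of them, Snhg1 holds 8, Snhg12 holds 4 and Snhg17 holds 3. Snhg3, Snhg5 and Snhg11 hold 2 each, and Snhg6, Snhg8 and Snhg15 hold 1 each. Both sets of letters are shown because they divide most of the hosts. The letters TGATGA of the C box, starting within the first 20 bases, together with CTGA of the D box ending within the last 20 bases were found in 17 of the 33 loci, and in 20.2% of the 1558 annotated small nucleolar and small Cajal body RNA transcripts. The letters ACA ending within the last 10 bases, without both boxes, were found in 12 loci and in 47.6% of all such transcripts, on the strand of the RNA. Neither was found in the other 4. The C and D letters prevailed in Gas5 (7 of 9), Snhg1 (6 of 8), Snhg5 (2 of 2) and Snhg6 (1 of 1), whereas ACA alone was found in every locus of Snhg3, Snhg8, Snhg11, Snhg15 and Snhg17. Snhg12 was mixed, with both boxes in 1 locus, ACA alone in 2 and neither in 1. The letters are a description and not a class: Snord78 of Gas5, a box C/D RNA by its name, had ACA by this rule and not both boxes.

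On GRCm38, Gas5 (ENSMUSG00000053332) lies on the plus strand of chromosome 1 from 161034422 to 161038539, and Snhg6 (ENSMUSG00000098234) on the minus strand from 9941959 to 9944118. Snhg1 (ENSMUSG00000108414) lies on the plus strand of chromosome 19 from 8723475 to 8726443. Snhg12 (ENSMUSG00000086290), on the plus strand of chromosome 4 from 132308623 to 132311024, and Snhg3 (ENSMUSG00000085241), on its minus strand from 132348014 to 132353686, are 37.0 kb apart. Snhg8 (ENSMUSG00000104960) is on chromosome 3 from 123507552 to 123508404, Snhg5 (ENSMUSG00000097195) on chromosome 9 from 88521050 to 88522929 and Snhg15 (ENSMUSG00000085156) on chromosome 11 from 6525591 to 6528760, all on the minus strand.

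**Figure D1:**
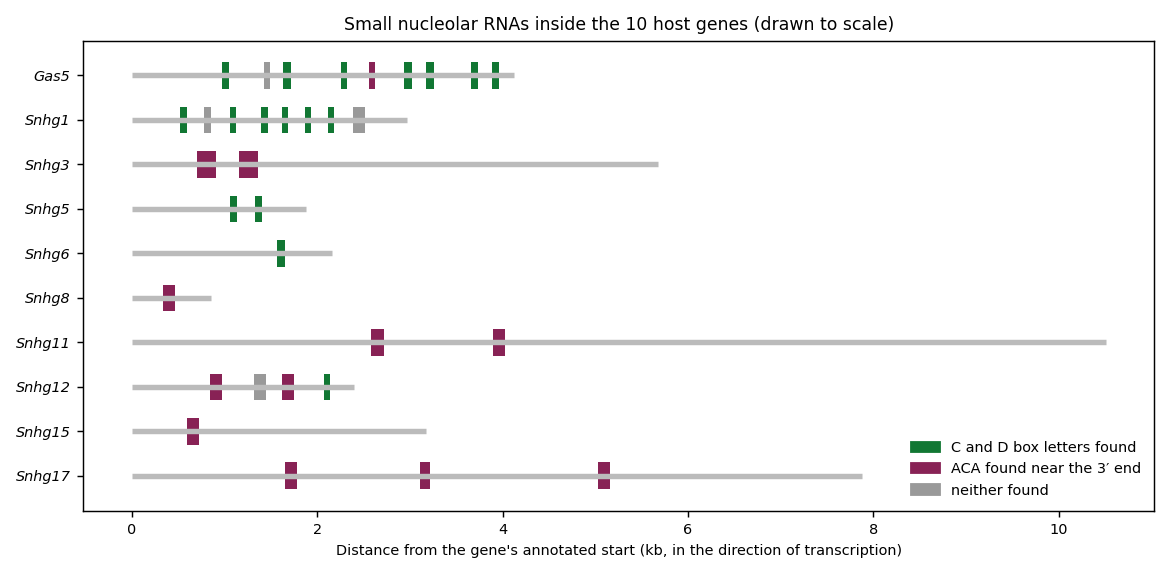
Positions of the 33 small nucleolar RNAs inside the 10 host genes, drawn to scale from each gene's annotated start (x axis, kb in the direction of transcription), coloured by the box letters found. Gas5 (9 loci) and Snhg1 (8 loci) carry the most, and the 5 loci of Snhg11 and Snhg17 all show the ACA letters.

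The following sequences are from GENCODE M21 transcripts of GRCm38, 5′ to 3′ on the strand of the host, with the C and D box letters in capitals. Snord47 (chr1:161038082-161038158, plus strand) and Snord80 (chr1:161037601-161037681, plus strand) come from Gas5. Snord50a (chr9:88521529-88521600) and Snord50b (chr9:88521797-88521868) are the pair inside Snhg5, and Snord87 (chr1:9942463-9942549) is the single RNA of Snhg6, all on the minus strand. Snord50a and Snord50b were identical at 71 of 72 positions, and the 1 difference was C50A, with the base of Snord50a first and positions counted from the 5′ end.
Snord47: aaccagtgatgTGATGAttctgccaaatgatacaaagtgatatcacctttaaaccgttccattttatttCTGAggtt
Snord80: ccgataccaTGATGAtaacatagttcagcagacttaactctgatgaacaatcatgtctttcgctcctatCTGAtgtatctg
Snord50a: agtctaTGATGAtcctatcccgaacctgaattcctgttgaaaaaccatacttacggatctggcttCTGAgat
Snord50b: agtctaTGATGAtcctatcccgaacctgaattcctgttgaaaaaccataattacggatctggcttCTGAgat
Snord87: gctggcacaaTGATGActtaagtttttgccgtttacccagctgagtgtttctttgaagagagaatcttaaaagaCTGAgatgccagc

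Snhg17 and Snhg11 are neighbours on chromosome 2, and their small RNAs are shown in full. Of the 2, only the gene sum of Snhg11 was called below, in 1 comparison, and that of Snhg17 was called in none. Snhg17 (ENSMUSG00000085385) runs on the minus strand from 158353700 to 158361580 and Snhg11 (ENSMUSG00000044349) on the plus strand from 158375638 to 158386145, with 14.1 kb between them. Snhg17 carries Gm24411 (chr2:158356424-158356554), Gm26003 (chr2:158358360-158358472) and Gm23925 (chr2:158359798-158359929), and Snhg11 carries Gm25187 (chr2:158378222-158378354) and Gm25129 (chr2:158379534-158379666). The capitals mark the ACA letters at the 3′ end, with which all 5 end.
Gm24411: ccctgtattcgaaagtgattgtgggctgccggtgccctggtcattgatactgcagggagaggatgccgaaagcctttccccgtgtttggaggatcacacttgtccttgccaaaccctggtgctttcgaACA
Gm26003: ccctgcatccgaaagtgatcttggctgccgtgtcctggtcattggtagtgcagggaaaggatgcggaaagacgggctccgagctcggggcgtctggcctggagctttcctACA
Gm23925: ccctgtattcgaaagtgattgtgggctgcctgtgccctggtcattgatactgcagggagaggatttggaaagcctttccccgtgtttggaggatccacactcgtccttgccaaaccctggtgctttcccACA
Gm25187: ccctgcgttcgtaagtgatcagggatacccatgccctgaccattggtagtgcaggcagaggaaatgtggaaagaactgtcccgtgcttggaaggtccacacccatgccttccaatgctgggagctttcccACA
Gm25129: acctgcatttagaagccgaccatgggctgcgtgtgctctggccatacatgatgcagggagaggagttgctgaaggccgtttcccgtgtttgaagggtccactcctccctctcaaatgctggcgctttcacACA
In global alignments of these 5 RNAs, the identity between an RNA of Snhg17 and one of Snhg11 ranged from 60.4% (Gm26003 with Gm25129) to 75.0% (Gm23925 with Gm25187). Within Snhg17, Gm24411 and Gm23925 were 93.9% identical, and within Snhg11 the pair was 68.4% identical. The Snora73a and Snora73b copies in Snhg3 were 96.6% identical over 205 bases.

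RefSeq promoter sequences of GRCm38.p6 were found for 9 of the 10 hosts, with 11 annotated starts. A start at C followed by 4 further pyrimidines, read on the strand of transcription, is the run that marks growth-controlled mRNAs. It stood exactly at the start of 2 of these 11 promoters, 1 of Gas5 and that of Snhg8, and of 2.51% of all 32851 promoters. Within 10 bases of the start it was found in 5 of the 11 and in 30.7% of all promoters. Shown are 20 bases either side of the start for the Gas5 promoter with the run (chr1:161035146-161035186, plus strand), Snhg8 (chr3:123508316-123508356, minus strand) and, without the run, Snhg11 (chr2:158375693-158375733, plus strand). The capitals mark the start base and the pyrimidines that follow it in a run.
Gas5: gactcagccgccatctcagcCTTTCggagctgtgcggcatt
Snhg8: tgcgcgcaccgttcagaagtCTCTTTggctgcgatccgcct
Snhg11: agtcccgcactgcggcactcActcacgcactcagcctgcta

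The libraries held 3517967 to 5014389 counts, of which the 10 hosts took between 0.0514% and 0.0726%. The labels and the data disagreed on the makeup of the groups. According to the design, every group consisted of 2 females and 1 male. Transcripts of 4 Y-linked genes, however, had 1074 to 1661 counts in all 6 WT libraries and in 5 × FAD 3 of both regions and 0 counts in 5 × FAD 1 and 5 × FAD 2 of both regions. Xist, made from the inactive X chromosome of females, had 30468 to 46630 counts in these 4 libraries and 4 to 25 in the others. Sex and genotype therefore cannot be told apart in 2 of the 3 5 × FAD libraries of a region, and the genotype values of the host gene sums and of 3 single transcripts are given with and without them. Trem2 of the microglial list had 91 to 142 hippocampal counts in WT and 714 and 809 in those 2 libraries, but 164 in 5 × FAD 3. In the cortex it had 129 to 248, 1046 and 688, and 87 counts in the same order. Values without the 2 libraries thus rest on a 5 × FAD library near WT in this marker. Of the marker lists, Zbtb20, a hippocampal transcription factor, was higher in the hippocampus of both genotypes, and Mef2c and Cux1 of the cortical list were lower there in WT. Kl of the choroid plexus list was also higher in WT hippocampus (log2 fold change 2.78, adjusted p = 0.00872 by edgeR). The table of non-coding transcripts lists 3 of 10 microglial, 5 of 8 neuronal and 2 of 6 choroid plexus marker genes. Of the last, only Kl passed the filter on low counts.

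Levels were compared between hosts per length, as the CPM of each transcript (its count scaled by the effective size of the library) divided by its length in kb and summed over a gene. Gas5 was highest on this scale with 110 ± 11.9 CPM per kb (SD, n = 12 libraries), next to Snhg11 with 108 ± 17.5. These 2 did not differ beyond their spread, and their lowest libraries (85.4 and 85.5) were above the highest library of any other host (66.2, in Snhg3). Snhg3 followed with 46.8 ± 9.13, then Snhg12 with 39.8 ± 5.64, Snhg8 with 37.2 ± 8.31, Snhg6 with 33.4 ± 4.07, Snhg1 with 33.1 ± 4.77, and Snhg17 and Snhg5, both at 30.4, with SDs of 6.18 and 6.98. From Snhg3 down to Snhg5, each host differed from the next in this order by less than its SD. Snhg15 was lowest, with 14.3 ± 5.12 CPM per kb and 21 to 60 counts a library. Its spread was also the widest, with its highest library 3.21 times its lowest in CPM, against 1.39 times for Gas5. Of the annotated transcripts, 2 of 5 were listed for Snhg11 and 7 of 10 for Snhg12, against 25 of 25 for Gas5. The levels of Snhg11 and Snhg12 are thus those of a part of the gene.

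Summed per gene without division by length, the hosts ranged from Snhg15, with 4.66 to 15.0 CPM, to Snhg11, with 244 to 389 CPM. Gas5 had 79.4 to 110 CPM, Snhg17 39.2 to 86.7, Snhg5 17.1 to 45.9, Snhg12 24.0 to 37.6, Snhg1 22.0 to 36.9, Snhg3 16.5 to 32.2, Snhg6 18.0 to 27.0 and Snhg8 14.1 to 25.5. All 10 gene sums passed the filter on low counts in all comparisons. Their single transcripts were thinner: 46 of the 84 had a mean below 10 counts, 5 had a mean of at least 50, and 1 had no count in any library.

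**Figure D2:**
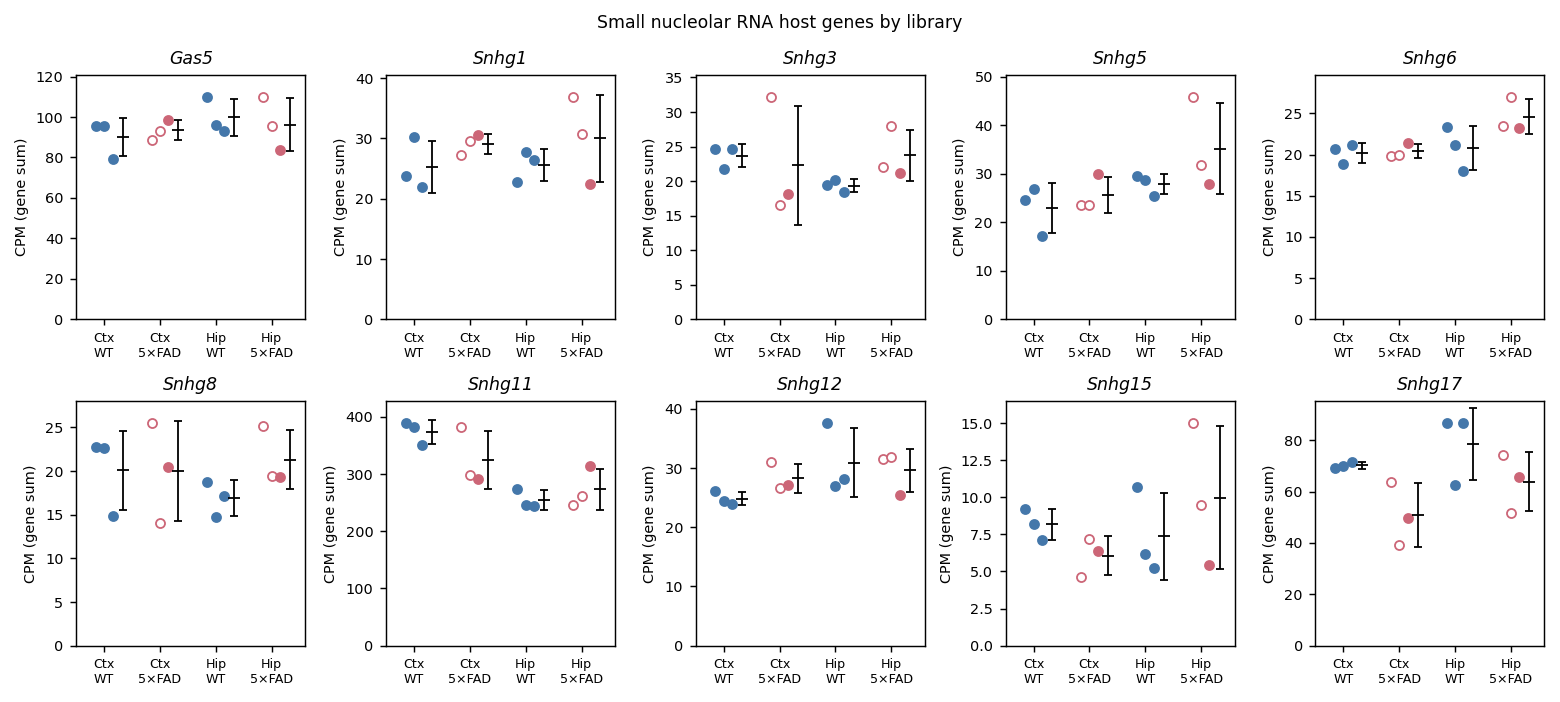
Summed CPM (y axis, from 0) of each host gene in the 12 libraries, 3 a group (Ctx, cortex; Hip, hippocampus), with the mean ± SD beside the points; open points are the 5 × FAD libraries without Y-linked transcripts. Snhg11 is higher in WT cortex (350 to 389 CPM) than in WT hippocampus (244 to 274 CPM), and most other groups overlap.

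Whether the hosts differ between genotypes was tested first in the hippocampus. None of the 10 gene sums passed an adjusted p of 0.05 in edgeR, none had an unadjusted p under 0.05, and DESeq2 called 0 as well. Of all 11343 gene sums, edgeR called 0.0529%, DESeq2 called 0.732%, and 8.69% had an unadjusted p under 0.05. The fold changes of 7 hosts were above 0 and those of 3 below, with a median of 0.26 on the log2 scale beside 0.03 over all gene sums. All 10 values were between -0.27 (Snhg17) and 0.46 (Snhg15). The median moved with the libraries: it was 0.10 without 5 × FAD 1 and -0.07, with 5 hosts on either side of 0, when 5 × FAD 1 and 5 × FAD 2 were left out, which leaves 1 5 × FAD library that is assumed to vary like the others. Without those 2 libraries the other hosts stood at -0.24 (Gas5 and Snhg17), -0.26 (Snhg12), 0.15 (Snhg3), 0.18 (Snhg6), 0.21 (Snhg8) and 0.33 (Snhg11, from 0.13), and the values of Snhg1, Snhg5 and Snhg15 are given below. Summed cell markers also lay apart between these groups. The listed microglial genes summed to 30.9 to 42.1 CPM in WT and 47.4 to 203 CPM in 5 × FAD, and the oligodendrocyte genes to 349 to 439 and 506 to 592 CPM. The neuronal sum was lower in 5 × FAD, at 1027 to 1216 CPM against 1339 to 2387, and so was the astrocyte sum, at 543 to 1225 CPM against 1487 to 1569. Abundant genes carry these sums, and the genes of a list did not all move alike. Log2 fold changes were -1.02 for Slc1a3 and 0.25 for Gja1 of the astrocyte list, and -1.79 for Camk2a and 0.41 for Rbfox3 of the neuronal list. Medians over the tested genes were -0.33 (neuronal), -0.02 (astrocyte) and -0.08 (oligodendrocyte). The part of the cell markers in the host values was not tested. In bulk tissue, fewer cells of a type and less RNA per cell cannot be told apart.

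The 5 × FAD libraries did not overlap the WT libraries in hippocampal CPM for Snhg3 and Snhg8, the hosts of Snora73a, Snora73b and Snora24. Such gaps between groups were found for 16.5% of all gene sums, a share near that of the hosts (2 of 10). Snhg3 had 19.5, 20.2 and 18.4 CPM in WT 1, WT 2 and WT 3 and 22.0, 28.0 and 21.2 CPM in 5 × FAD 1, 5 × FAD 2 and 5 × FAD 3. Every 5 × FAD library was thus above every WT library, but the lowest 5 × FAD value exceeded the highest WT value by little (log2 fold change 0.32 ± 0.21 SE, 95% interval -0.17 to 0.81, adjusted p = 0.673). The value fell to 0.15 without 5 × FAD 1 and 5 × FAD 2. Snhg3 shares 5592 bases of its strand with Rcc1, a gene with transcripts of its own in the table, so reads of the 2 cannot be fully told apart. Snhg8 had 18.8, 14.7 and 17.1 CPM in the WT libraries and 25.2, 19.4 and 19.3 CPM in the 5 × FAD libraries. Its 2 lower 5 × FAD values lay just above the highest WT value (log2 fold change 0.36 ± 0.23 SE, 95% interval -0.18 to 0.90, adjusted p = 0.665), and the value was 0.21 without 5 × FAD 1 and 5 × FAD 2.

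Snhg5 and Snhg1 overlapped between the hippocampal groups. Snhg5 had 29.5, 28.7 and 25.5 CPM in WT and 45.9, 31.9 and 27.9 CPM in 5 × FAD, where the library 5 × FAD 1 stood highest (log2 fold change 0.36, 95% interval -0.20 to 0.92). Without 5 × FAD 1 and 5 × FAD 2 the value was 0.02. Snhg1 had 22.7, 27.7 and 26.4 CPM in WT and 36.9, 30.7 and 22.5 CPM in 5 × FAD, again with 5 × FAD 1 highest and 5 × FAD 3 below all WT libraries. Its log2 fold change was 0.26 (95% interval -0.30 to 0.82) and -0.16 without 5 × FAD 1 and 5 × FAD 2. Gas5 had 110, 96.0 and 93.3 CPM in WT and 110, 95.4 and 83.5 CPM in 5 × FAD, the narrowest hippocampal interval but for that of Snhg11 (log2 fold change -0.02, 95% interval -0.44 to 0.39). Snhg6, with 0.27 (-0.22 to 0.76), and Snhg12, with -0.04 (-0.55 to 0.48), also overlapped between the groups.

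Snhg15, the host of Snora9, was the most variable in the hippocampus. It had 10.7, 6.17 and 5.23 CPM in WT and 15.0, 9.47 and 5.43 CPM in 5 × FAD. The ranges of the genotypes overlapped, with 5 × FAD 1 above all others, and its interval was the widest of all hosts (log2 fold change 0.46, 95% interval -0.60 to 1.52). With 5 × FAD 1 and 5 × FAD 2 left out, the fold change turned to -0.42.

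The same comparison in the cerebral cortex gave no call either. None of the 10 gene sums passed the adjusted threshold in edgeR or in DESeq2, where edgeR called 0.0175% and DESeq2 0.465% of all 11404, and 1 had an unadjusted p under 0.05, beside 6.67% of all gene sums. The hosts were split evenly, 5 above and 5 below 0, with a median of 0.00 over the hosts and over all gene sums. Groups did not overlap for Snhg12 and Snhg17, and such gaps were found for 13.1% of all gene sums. Of the cell marker lists, the oligodendrocyte genes lay apart, with 300 to 469 CPM in WT and 539 to 613 CPM in 5 × FAD, and their part in the host values was not tested.

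Snhg17 was the host with the unadjusted p under 0.05. It had 69.2, 69.8 and 71.7 CPM in WT 1, WT 2 and WT 3 of the cortex and 63.7, 39.2 and 49.8 CPM in 5 × FAD 1, 5 × FAD 2 and 5 × FAD 3. The WT libraries were within 3 CPM of each other and all 5 × FAD libraries lay below them, 5 × FAD 2 the furthest. The log2 fold change was -0.47 ± 0.20 SE (unadjusted p = 0.0495, adjusted p = 0.740 by edgeR), and it was -0.50 without 5 × FAD 1 and 5 × FAD 2. In the hippocampus Snhg17 had 86.6, 62.4 and 86.7 CPM in WT and 74.4, 51.7 and 65.7 CPM in 5 × FAD. These groups overlapped (log2 fold change -0.27, 95% interval -0.79 to 0.25), and the hippocampal minus the cortical genotype effect was 0.17 (95% interval -0.49 to 0.82).

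Snhg12 of the cortex had 26.1, 24.4 and 24.0 CPM in WT and 31.1, 26.7 and 27.1 CPM in 5 × FAD. The gap between the groups was under 1 CPM (log2 fold change 0.18, 95% interval -0.21 to 0.58, adjusted p = 0.862). Gas5 had 95.8, 95.5 and 79.4 CPM in WT and 88.8, 93.1 and 98.7 CPM in 5 × FAD, with overlapping groups and an interval of -0.29 to 0.38. Snhg6 was the steadiest host there (18.8 to 21.1 CPM against 19.8 to 21.4 CPM), with a log2 fold change of 0.01 and an interval of -0.40 to 0.42. Snhg3 was even across the WT libraries, at 24.7, 21.8 and 24.6 CPM, and uneven in 5 × FAD, at 32.2, 16.5 and 18.2 CPM, with 5 × FAD 1 far above the other 2. The intervals of Snhg1 (-0.25 to 0.65), Snhg5 (-0.40 to 0.71), Snhg8 (-0.69 to 0.67), Snhg11 (-0.56 to 0.15) and Snhg15 (-1.09 to 0.23) all held 0. Without 5 × FAD 1 and 5 × FAD 2 the log2 fold changes were 0.38 for Snhg5 (from 0.16), -0.38 for Snhg3 (from -0.09), -0.36 for Snhg11 (from -0.21) and -0.36 for Snhg15 (from -0.43). They were 0.26 for Snhg1, 0.13 for Gas5, 0.12 for Snhg12, 0.08 for Snhg6 and 0.02 for Snhg8.

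The genotype effects of the 2 regions were compared in 1 fit of all 12 libraries. No host passed the adjusted threshold, and none had an unadjusted p under 0.05, while edgeR called 0% of the 12104 gene sums, with 848 at an unadjusted p under 0.05, and DESeq2 called no host and 0.173% of all gene sums. The largest value among the hosts was that of Snhg15 (0.86 on the log2 scale, 95% interval -0.34 to 2.06), and it fell to -0.06 without 5 × FAD 1 and 5 × FAD 2. In that reduced set, with 1 5 × FAD library a region, the hosts ranged from -0.43 (Snhg1) to 0.68 (Snhg11). The spread between 5 × FAD mice is not measured there.

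**Figure D3:**
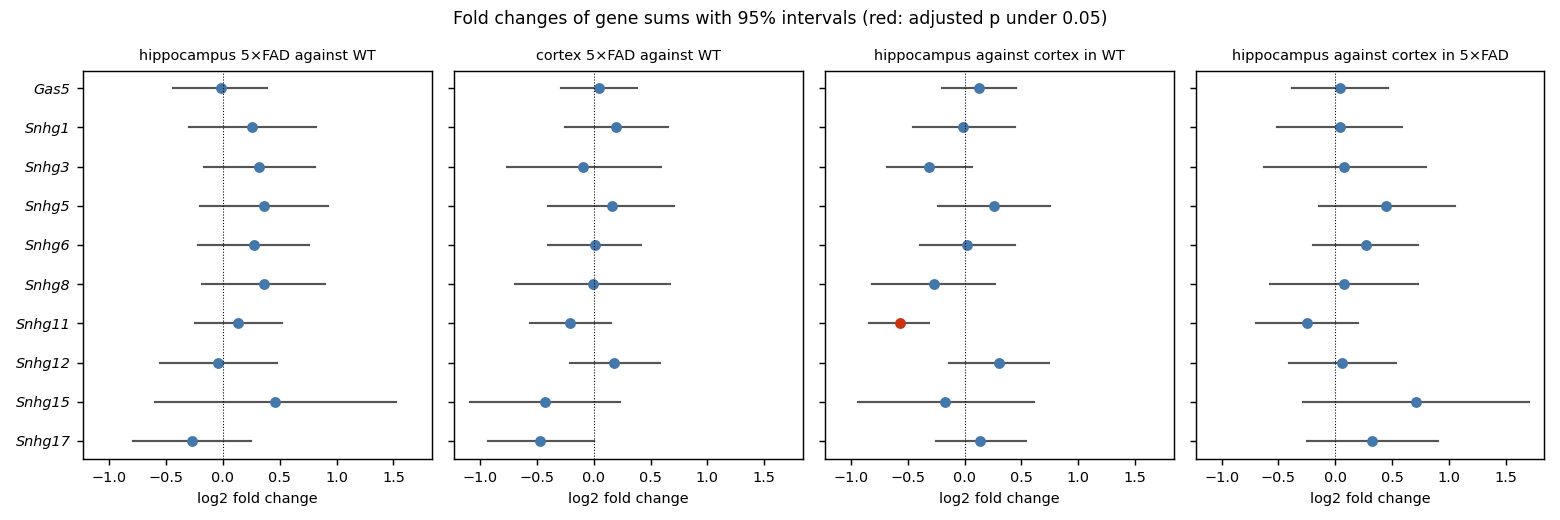
Log2 fold changes of the 10 gene sums (x axis) with 95% intervals from edgeR, 1 panel for each of 4 comparisons; red marks an adjusted p under 0.05. Only Snhg11 in the comparison of hippocampus with cortex in WT is called (-0.57, interval -0.84 to -0.31), and of the other intervals only that of Snhg17 between the cortical genotypes lies apart from 0.

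Between the regions, Snhg11 was the 1 host that differed. Snhg11 is known as an RNA of neurons and is often used to mark them in single-nucleus data. Its gene sum had 389, 382 and 350 CPM in WT 1, WT 2 and WT 3 of the cortex and 274, 245 and 244 CPM in the hippocampus. All cortical libraries were above all hippocampal ones, and the hippocampal level was 0.671 times the cortical level (log2 fold change -0.57 ± 0.11 SE, 95% interval -0.84 to -0.31, adjusted p = 0.0439 by edgeR). Snhg11 was thus 1 of 10 hosts called, where 3.49% of all 11429 gene sums were called, and DESeq2 called the same host (adjusted p = 0.00365) and 6.66% of all gene sums. The call was a narrow one: leaving out any 1 of the 6 libraries moved the adjusted p to between 0.0610 and 0.169, with log2 fold changes of -0.63 to -0.54. Over all 15 alternatives that gave a value, the direction held in each and the adjusted p was above 0.05 in 10. The highest, 0.170, came with the library number as a replicate block, and the labels do not say whether equal numbers in the 2 regions stand for 1 mouse.

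Cell markers moved in part with this difference. The summed CPM of the listed cortical genes was 424 to 509 in WT cortex and 193 to 203 in WT hippocampus, and the summed CPM of the 5 listed neuronal genes was 1359 to 1907 and 1339 to 2387. The microglial genes summed to 46.6 to 60.4 CPM in WT cortex and 30.9 to 42.1 CPM in WT hippocampus. Kl, the only tested gene of the choroid plexus list, was higher in WT hippocampus, as given above. The part of cell composition in the Snhg11 value was not tested. In 5 × FAD mice, Snhg11 had 383, 298 and 292 CPM in the cortex and 245, 262 and 314 CPM in the hippocampus. Here the groups overlapped, 5 × FAD 3 of the hippocampus reaching above 2 cortical libraries (log2 fold change -0.25, 95% interval -0.70 to 0.20, adjusted p = 0.661). The regional difference was not shown to depend on genotype, since its difference between WT and 5 × FAD was 0.31 (95% interval -0.15 to 0.77, adjusted p = 0.801).

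The other 9 hosts did not pass the test between the regions. In WT, groups did not overlap for Snhg3, lower in the hippocampus (-0.31, 95% interval -0.68 to 0.07), Snhg12, higher there (0.30, -0.14 to 0.74), and Snhg11, beside 24.9% of all gene sums. In 5 × FAD, 0 of 10 hosts were called by edgeR or DESeq2 and 0 had an unadjusted p under 0.05, where edgeR called 0.193% and DESeq2 2.95% of all 11399 gene sums and 12.6% had such a p. Groups did not overlap there for Snhg6 alone, with 19.8 to 21.4 CPM in the cortex and 23.2 to 27.0 CPM in the hippocampus (0.27, 95% interval -0.20 to 0.73), beside 19.2% of all gene sums. The medians over the hosts were 0.01 in WT and 0.08 in 5 × FAD, beside -0.02 and 0.01 over all gene sums.

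Much of the host signal was counted on transcripts that keep an intron. The annotation calls 42 of the 84 transcripts retained intron, and 40 hold a small nucleolar RNA inside an exon, so that they overlap the precursor. For 5 hosts, transcripts of both kinds were listed. How reads were divided between overlapping transcripts is not given in the sources used here, so these shares are a description. Retained-intron transcripts took 79.4% to 89.1% of the Gas5 counts of a library, 63.2% to 82.9% of the Snhg1 counts and 88.9% to 98.2% of the Snhg5 counts. For Snhg8 and Snhg17 the shares were lower, at 17.8% to 38.6% and 29.7% to 59.9%. Both listed Snhg11 transcripts are of this kind, and its protein coding and decay-prone transcripts were not analysed here, while no transcript of this kind is annotated for Snhg3, Snhg6, Snhg12 and Snhg15.

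**Figure D4:**
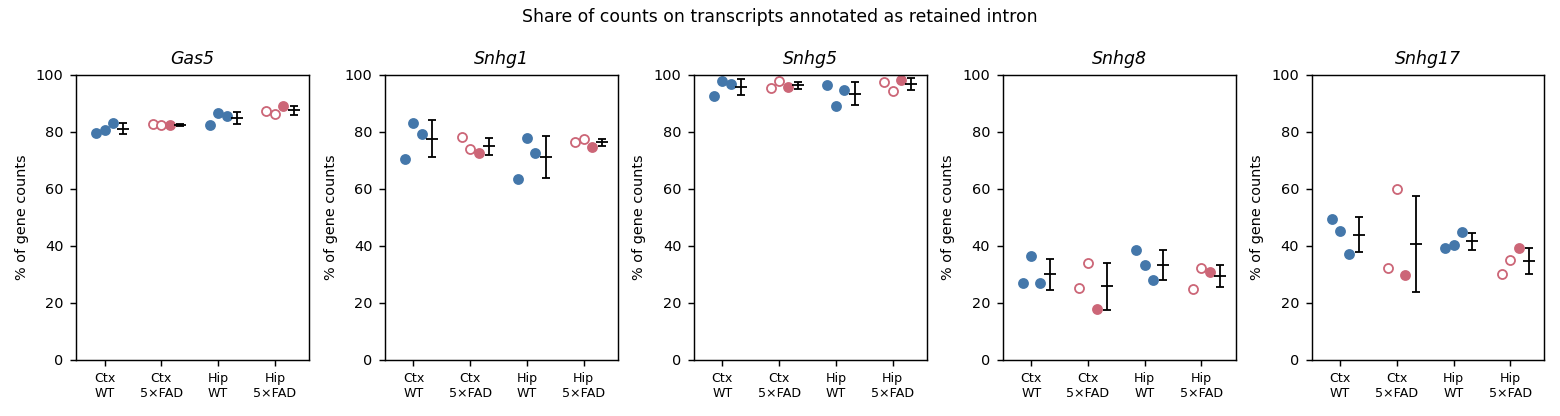
Share of a host's counts (y axis, percent) on transcripts annotated as retained intron, in each of the 12 libraries, with the mean ± SD of 3 libraries beside the points; open points are the 5 × FAD libraries without Y-linked transcripts. Gas5 and Snhg5 stay above 79% in every library, and Snhg8 and Snhg17 stay below 60%.

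The most abundant transcript of each host was of the intron-keeping kind for Gas5 (ENSMUST00000161229, which spans 6 of its small RNAs), Snhg1 (ENSMUST00000206519, which spans 7), Snhg5 (ENSMUST00000182872, which spans Snord50a) and Snhg11 (ENSMUST00000137320, which spans Gm25187). For the others it was ENSMUST00000141090 of Snhg3, ENSMUST00000182819 of Snhg6, ENSMUST00000196466 of Snhg8, ENSMUST00000128131 of Snhg12, ENSMUST00000129570 of Snhg15 and ENSMUST00000186993 of Snhg17, an unspliced RNA over Gm24411. ENSMUST00000137320 alone took 97.3% of the Snhg11 counts, and its regional difference in WT was near that of the gene sum (-0.59 ± 0.13 SE, adjusted p = 0.110 over transcripts by edgeR and 0.0180 by DESeq2).

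Tested one by one, 39 to 42 of the 84 host transcripts passed the filter, and edgeR called none in any of the 5 comparisons. At an unadjusted p under 0.05 there were 2 of 40 in the hippocampus and 3 of 39 in the cortex between genotypes, 2 of 39 in WT and 0 of 39 in 5 × FAD between regions, and 1 of 42 for the difference of genotype effects. Over all transcripts the shares at an unadjusted p under 0.05 were 7.58%, 5.34%, 12.8%, 9.38% and 6.89% in the same order, so the host counts were near or below the background. The adjusted calls of edgeR took 0.0183%, 0.0545%, 0.986%, 0.0182% and 0.00812% of all transcripts tested. DESeq2 called only ENSMUST00000137320, between the regions in WT, among the host transcripts, and 0.580%, 0.464%, 3.38%, 1.66% and 0.438% of all transcripts in that order. Groups of the 2 genotypes did not overlap for 6 of 40 host transcripts in the hippocampus (15.7% of all transcripts) and for 6 of 39 in the cortex (12.1% of all).

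Of the host transcripts, 40 tested in the hippocampus and 39 in the cortex, a pair kept the genotypes apart in the same direction in both regions. So did 1.34% of all transcripts tested in both. Since both regions came from each mouse, they are not independent repeats. The pair is named here after its values were seen. The first is ENSMUST00000149667 of Snhg17, a retained-intron RNA of 3896 bases on chromosome 2 from 158355785 to 158361513, whose exons span Gm26003 and Gm23925 shown above. Its cortical counts were 138, 132 and 80 in WT, against 78, 60 and 52 in 5 × FAD. All 5 × FAD libraries were below all WT libraries, also after scaling (22.8 to 33.1 CPM against 12.0 to 17.5 CPM), with a log2 fold change of -0.89 ± 0.24 SE (unadjusted p = 0.00889, adjusted p = 0.844 by edgeR). Its hippocampal counts were 140, 114 and 158 in WT, against 80, 67 and 92 in 5 × FAD, lower again in every 5 × FAD library (log2 fold change -0.63 ± 0.25 SE, unadjusted p = 0.0427, adjusted p = 0.650). Without 5 × FAD 1 and 5 × FAD 2 the values were -1.24 in the cortex and -0.41 in the hippocampus. The most abundant Snhg17 transcript, ENSMUST00000186993, overlapped between the genotypes in both regions (-0.47 in the cortex and -0.23 in the hippocampus).

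The other is ENSMUST00000148965 of Snhg11, a retained-intron RNA of 687 bases near the start of the gene (chromosome 2 from 158375661 to 158377206) that spans no small RNA. Its cortical counts were 18, 23 and 16 in WT, against 57, 41 and 37 in 5 × FAD. The 5 × FAD libraries were all above the WT libraries (log2 fold change 1.22 ± 0.26 SE, unadjusted p = 0.00279, adjusted p = 0.646 by edgeR). Its hippocampal counts were 30, 28 and 32 in WT, against 69, 34 and 35 in 5 × FAD, where 5 × FAD 1 stood far above and the other 2 just above WT (log2 fold change 0.78 ± 0.38 SE, adjusted p = 0.680). Without 5 × FAD 1 and 5 × FAD 2 the values were 0.87 and 0.39. With 16 to 69 counts a library, it adds little to the gene sum of Snhg11, whose main transcript did not move in the same way (-0.23 in the cortex and 0.08 in the hippocampus).

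**Figure D5:**
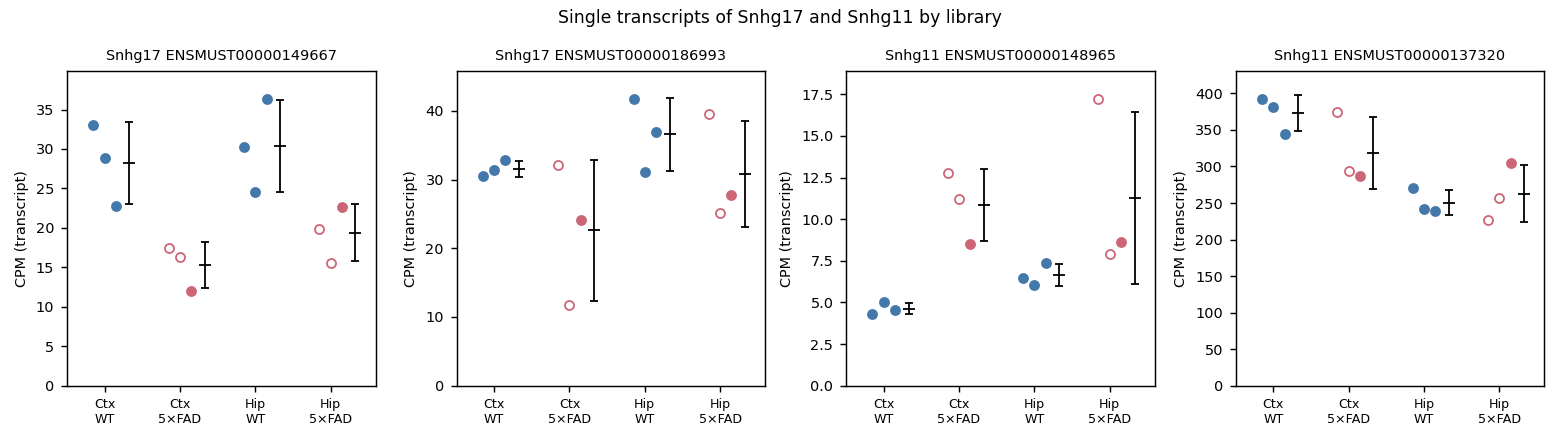
CPM (y axis, from 0) of 4 transcripts in the 12 libraries, 3 a group (Ctx, cortex; Hip, hippocampus), with the mean ± SD beside the points; open points are the 5 × FAD libraries without Y-linked transcripts. ENSMUST00000149667 of Snhg17 is lower and ENSMUST00000148965 of Snhg11 higher in every 5 × FAD library than in every WT library of the same region.

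A Snhg12 transcript over Snord99, ENSMUST00000144705, was also named after its values were seen. It was counted 19, 18 and 11 times in WT cortex, against 39, 30 and 26 times in 5 × FAD cortex (log2 fold change 0.97 ± 0.29 SE, unadjusted p = 0.0141, adjusted p = 0.851 by edgeR). Its value was 0.61 without 5 × FAD 1 and 5 × FAD 2. In the hippocampus its genotypes overlapped, at 50, 27 and 27 for WT against 32, 38 and 25 for 5 × FAD (0.02, 95% interval -0.81 to 0.85, and -0.29 without those 2 libraries). Its hippocampal minus its cortical genotype effect was -0.96 ± 0.43 SE (adjusted p = 0.725).

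Other hosts, and genes linked to hosts or to their small RNAs, were taken as lists. For protein-coding genes the table counts mainly their non-coding transcripts. Among 7 tested genes of the other small nucleolar RNA host list, such as Snhg14 and Epb41l4aos, none passed the adjusted threshold in any of the 5 comparisons. Epb41l4aos had the lowest unadjusted p between genotypes, in the hippocampus (log2 fold change 1.01 ± 0.28 SE, adjusted p = 0.526). The list's medians of 0.35 in the hippocampus and -0.01 in the cortex stood beside 0.26 and 0.00 for the 10 hosts. Of the genes listed for the C/D particle, 6 or 7 were tested and 0 called. Rrp9, whose protein binds the U3 RNA, had 0.61 ± 0.22 SE between the genotypes in the hippocampus (adjusted p = 0.540 by edgeR). The 3 tested genes of the H/ACA particle, the 10 or 11 of nonsense-mediated decay and the 5 of the growth control of pyrimidine-start mRNAs gave no call either. At an unadjusted p under 0.05 between the regions in WT stood 3 decay genes, Upf2 (1.14) and Smg1 (0.57) with values above 0 and Smg9 (-0.40) below, and Rptor of the growth control list (-0.81), where 17.3% of all gene sums had such a p. Between the cortical genotypes Rptor (-0.68) and Znhit6 of the C/D list (1.28) had such a p.

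The 5 genes or loci most like the hosts were sought by the correlation of their log2 CPM with the mean centred profile of the 10 hosts over the 12 libraries. They were Gm11948 (r = 0.89), the assembled locus MSTRG.17712 (0.87), Upf3b (0.87), a factor of nonsense-mediated decay, Amd1 (0.86), an enzyme of polyamine synthesis, and 2610507B11Rik (0.86), from 12094 candidates. The points share libraries and scaling, and the profile peaked in hippocampal 5 × FAD 1, at 0.29, with all other libraries between -0.19 and 0.12. Among the hosts, Snhg8 (0.67) and Gas5 (0.62) followed the mean of the other 9 most closely, and Snhg11 ran against it (-0.26).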

How the data were processed

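Per the labels, total RNA of 12 tissue samples was depleted of ribosomal RNA and made into stranded paired-end libraries. The study's methods also name RNase R, which digests linear RNA, in their account of circular RNA sequencing. No label here mentions that enzyme, and if it was used, counts of linear host transcripts would reflect what it left. The submitters' processing notes name Trimmomatic 0.36 and edgeR. The authors deposited whole-number counts per transcript, not normalized. The Burrows-Wheeler aligner is named for the calling of circular RNAs only. The aligner, counting program and genome build behind these counts, and whether counts are rounded estimates or use strand, are not given in the sources used here. Counts of overlapping transcripts of 1 host therefore depend on how reads were divided between them.

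All 12 columns were used and 0 were left out. Libraries were grouped by region and genotype, and the number in the library code names a library. Transcripts were assigned to genes with GENCODE M21 (GRCm38), in which 225 Ensembl identifiers were not found. The 2436 assembled transcripts were grouped by locus. Counts were summed per gene. Both levels were tested over the whole table with edgeR 4.0.16 in R 4.3.3 (filterByExpr, TMM, glmQLFit, glmQLFTest, Benjamini-Hochberg adjustment at 0.05). Each comparison used only its own 6 libraries, and the difference of genotype effects used all 12. SE is the size of the log2 fold change divided by the square root of F, and 95% intervals use the fit's degrees of freedom. Replicates are separate mice of a group, but their number of 3 limits precision, and the floor of 3 counts is 0.598 to 0.853 CPM by library. Libraries of 1 group differed by more than counting noise in every pair. Functions were tested on simulated counts. Sequences came from GENCODE M21 transcripts and RefSeq promoters, read with Python 3.11.15.

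The members and lists were chosen with earlier results of these data known. Named are all hosts, the most abundant transcript of each, any host transcript called, list genes called, and the 5 genes most like the hosts. Other named transcripts and list genes were chosen after their values were seen. The alternatives were DESeq2 1.42.0 and its size factors, library size only, no filter or 10 counts in every library, robust estimation, a replicate block, all 12 libraries in 1 fit, each library left out, assembled or retained-intron transcripts removed, and 5 × FAD 1 and 5 × FAD 2 left out.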

Additional observations from a re-analysis of the deposited data

Results flagged for a closer look

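One lowly counted Snhg17 transcript, ENSMUST00000141809, an RNA of 6 exons that spans no small RNA in its exons, kept the genotypes apart in opposite directions in the 2 regions. In the hippocampus it had 16, 18 and 17 counts in WT and 22, 19 and 16 counts in 5 × FAD, and after scaling every 5 × FAD library was above every WT library (log2 fold change 0.31, adjusted p = 0.805 by edgeR). In the cortex it had 19, 17 and 15 counts in WT and 14, 3 and 15 counts in 5 × FAD, with every 5 × FAD library below every WT library after scaling (log2 fold change -0.73, adjusted p = 0.913). The difference itself, tested in the fit of all 12 libraries, was 1.03 ± 0.58 SE (adjusted p = 0.774), so the opposite directions did not pass the test. Of the 5 × FAD libraries with Y-linked transcripts, that of the hippocampus had 3.95 CPM against 3.46 to 3.91 CPM in WT, and that of the cortex 3.45 CPM against 3.71 to 4.56 CPM. The transcript was named after its values were seen.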

How the results depend on the processing

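The number of hosts called was the same under all alternatives for 8 of the 10 comparisons, at 0. For hippocampus against cortex in WT, 1 gene sum (Snhg11) was called, and 0 were called without the filter on low counts, with the replicate block, in 1 fit of all 12 libraries, without assembled transcripts, without retained-intron transcripts (which removes Snhg11 itself) and in every fit with 1 library left out (0 to 0). Of the single transcripts in that comparison 0 were called, and 1 with DESeq2. Whether equal library numbers in the regions are the same mouse is not stated. Since both regions came from each mouse, the 5 × FAD 3 libraries, alone in their groups with Y-linked transcripts, would be 1 mouse. Correlations of same-numbered libraries across the regions were 0.01, -0.03 and -0.04 in WT and 0.07, 0.09 and 0.26 in 5 × FAD. Those of differently numbered libraries were -0.04 to 0.07 in WT and -0.18 to 0.10 in 5 × FAD. They do not settle the pairing of the other libraries. The block changed no other call. Of 1202 host values under an alternative, 1122 kept their direction and side of the threshold, 10 lost a call, 1 gained one and 69 changed sign, none of them called; the cause was not tested. Sign changes outside the fits with 1 library left out were these. Without 5 × FAD 1 and 5 × FAD 2, Snhg1 went from 0.26 to -0.16, Snhg15 from 0.46 to -0.42 and ENSMUST00000144705 from 0.02 to -0.29 in the hippocampal genotype comparison, Snhg8 from -0.01 to 0.02 in the cortical one, and Snhg1 from 0.03 to -0.43, Snhg5 from 0.18 to -0.36 and Snhg15 from 0.86 to -0.06 in the difference of genotype effects. Without retained-intron transcripts, Snhg12 went from -0.04 to 0.02 in the hippocampus, Gas5 from 0.05 to -0.08 and Snhg8 from -0.01 to 0.11 in the cortex, Gas5 from 0.13 to -0.21 and Snhg1 from -0.01 to 0.34 between regions in WT, Gas5 from 0.04 to -0.38 between regions in 5 × FAD, and Snhg1 from 0.03 to -0.34 in the difference. With library size only, hippocampal Gas5 went from -0.02 to 0.01 and Snhg6 between regions in WT from 0.02 to -0.04. Snhg1 between regions in WT went from -0.01 to 0.00 with DESeq2, its size factors, no filter or the block, to 0.01 in 1 fit of all libraries and to 0.03 without assembled transcripts. The block took Snhg1 in the difference from 0.03 to 0.00 and ENSMUST00000148965 between regions in 5 × FAD from 0.05 to -0.01, ENSMUST00000144705 there went from 0.01 to 0.00 with 10 counts in every library, and in the hippocampus from 0.02 to -0.01 without assembled transcripts.

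With 1 library left out, the values that changed sign spanned, in the hippocampal genotype comparison, -0.13 to 0.07 (Gas5), -0.14 to 0.12 (Snhg12), -0.15 to 0.36 (ENSMUST00000144705) and -0.03 to 0.19 (ENSMUST00000137320). In the cortical one they spanned -0.23 to 0.19 (Snhg8), -0.04 to 0.04 (Snhg6), -0.04 to 0.09 (Gas5), -0.01 to 0.29 (Snhg5) and -0.45 to 0.09 (Snhg3). Between regions in WT they spanned -0.09 to 0.13 (Snhg1), -0.07 to 0.11 (Snhg6), -0.54 to 0.02 (Snhg15) and -0.05 to 0.23 (ENSMUST00000149667), and in 5 × FAD -0.13 to 0.21 (Snhg1), -0.09 to 0.44 (Snhg3), -0.11 to 0.29 (Snhg8), -0.06 to 0.13 (Gas5), -0.38 to 0.25 (ENSMUST00000148965) and -0.14 to 0.14 (ENSMUST00000144705). In the difference of genotype effects they spanned -0.13 to 0.23 (Snhg1), -0.05 to 0.36 (Snhg5) and -0.20 to 0.02 (Gas5). Depth limits Snhg15 and most single transcripts, and 3 libraries a group limit every interval.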
